A study of Oncorhynchus mykiss with 525 samples.

Results

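The genes described here are 50 that rainbow trout gill cells held at a higher level than in solvent wells under at least 3 of 9 chemical exposures. They were taken from 4054 genes that met a rule on their level, out of 41914 gene IDs with a count in any well. A gene qualified if its solvent level lay between 20 and 1000 CPM (counts of a gene scaled to a common total per well) in both sets of plates and if it stayed under a log2 ratio to solvent of 1 at the highest concentration of 3 further chemicals, coded dip, met and col. The qualifying genes were then ranked by their third-highest log2 ratio to solvent over 9 exposures: concentration 1, the highest, of the chemicals coded diz, dca, car, cln, dic, mbz and per, and concentration 2 of clp and smet. The first 50 in that order are the members.

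The cells were RTgill-W1, an epithelial cell line from the gill of rainbow trout, exposed for 24 h in 96-well plates to pesticides, and the submitters aimed to find the concentration at which transcription starts to change. Exposed wells received 1 of 19 chemicals, most at 8 concentrations in 3-fold steps with 3 wells each, while dca had 5 concentrations in 2-fold steps with 6 wells each. Solvent wells received DMSO: 24 in the first set of plates and 15 in the second. Chemicals are named by the codes of the labels, concentrations are printed without a unit because the labels give none, and 24 further wells of 1 chemical were not analysed here. Every well is a culture of the same line, a replicate of an exposure is a cell passage, and pesticides were dissolved in DMSO or water without a label saying which. Several solvent wells share each plate and library, so solvent wells are not separate passages. Of 501 wells, 487 were kept, with totals of 24620 to 786151 counts and a median of 240948, while 46.3% of all counts fell on 4 IDs. The first set of plates held cln, ata, gly, imz, cat, thx, met and col, the second held diz, car, dic, mbz, per, clp, smet, ampa, diq and dip, and dca was in both.

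Gill epithelium is the surface across which a fish takes up much of what is dissolved in water, and its cells carry enzymes and transporters that modify and remove foreign compounds. Animal cells answer unrelated chemicals with overlapping sets of genes, among them those for detoxification, for protein folding and for defence against oxidants, which are switched on by sensor proteins and transcription factors. Which of these the members belong to is not stated here: of 44260 IDs, 0 matched the reference table of gene names, so the members have no name, role or sequence in this text and the epithelial markers of the cells were not checked. Members are therefore referred to by their rank in the ordering above, and 4 of them by their IDs.

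The members' ratios to solvent were high in different combinations of exposures. The following values chose the members and are a description. CPM is relative to the other RNA of a well, so within a well fewer cells of one kind and less RNA per cell cannot be told apart. A log2 ratio of 1 or more was reached by 23 members with diz, 11 with smet, 10 with dca, 10 with mbz, 9 with car, 8 with per, 8 with clp, 7 with cln and 1 with dic. The median log2 ratio over the 50 members was 0.87 for diz, 0.69 for car, 0.67 for clp, 0.65 for smet, 0.53 for per and 0.47 for mbz, and it was 0.23 for dic, 0.22 for dca and 0.14 for cln. The chemical diz was among the 3 highest exposures of 32 members, smet of 21, car and clp of 18 each, and dic of 4.

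No member reached a log2 ratio of 1 in all 9 exposures. The ratio was 1 or more in 4 exposures for 4 members, in 3 for 9 members, in 2 for 14, in 1 for 16, and in 0 for 7 members. A ratio above 0 was more widespread: the median member had one in 7 of 9 exposures, 3 members had one in all 9, and the member with the fewest had one in 3. The third-highest ratio, which set the order, was 1.84 for the first member, 0.87 for the median and 0.74 for the last. The list ended inside a continuous series of values: the last 2 members had 0.749 and 0.743388, and the next 2 genes had 0.743366 and 0.743245.

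**Figure D1:**
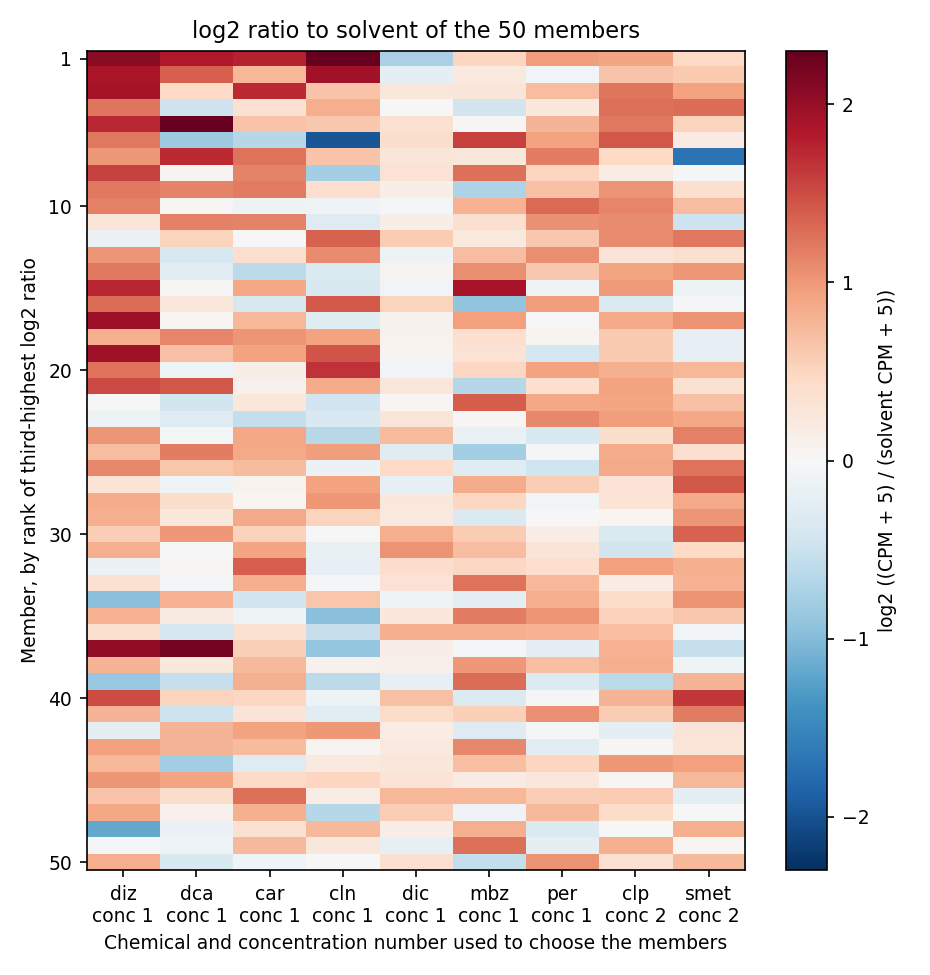
Each row is 1 of the 50 members in the order of its third-highest ratio, each column is 1 of the 9 exposures used by the rule, and the colour is the log2 ratio to the solvent wells of the same table, with 5 CPM added to both. Red cells are spread over all columns, most densely for diz with 23 members at 1 or more and least for dic with 1.

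The raised levels of a member came from few counts. The median member had 6 counts in a well, and 5 in a solvent well, where 7.64% of the member values were 0. Among 135 pairs of a member with 1 of its 3 highest exposures in which 3 wells were kept, the well with the most counts held a median of 50% of the counts of the exposure, and in 26 pairs it held over 60%. Over 150 such pairs, all wells lay above the pooled solvent level in 99. The 3 highest exposures of 18 members included at least 2 that were pooled in the same libraries, and those of the other 32 members came from 3 different groups of libraries.

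At the highest concentration of dip, met and col, where the rule capped all qualifying genes below 1, many members were low, and the other qualifying genes had lower medians. With col the median log2 ratio was -0.99 for the members and -1.19 for the other genes, 18 of 50 members and 18.1% of the other genes were above 0, and 25 members were at -1 or lower, with a lowest value of -5.21. With met the median was -0.20 for the members, 21 of them above 0, and -0.64 for the other genes, 26.2% above 0. With dip it was 0.09 for the members, 28 of them above 0, and -0.20 for the other genes, 41.0% above 0. All 3 chemicals gave values below 0 for 16 members.

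The members' solvent level differed between the sets of plates, and this difference enters the ratios. In the second set 47 of the 50 members were lower in solvent wells than in the first set, with a median log2 ratio, second over first, of -0.38. Among the 4004 other qualifying genes 51.1% were lower in the second set and the median was -0.0080. Summed over the 50 members, the level in solvent wells was 2020 to 3077 CPM with a median of 2330 in the second set (n = 15), against 2350 to 5323 CPM with a median of 3362 in the first set (n = 24). The ranges overlap, but the median of the second set lies below the lowest well of the first. In all, 7 of the 9 exposures of the rule are set against the second set's solvent wells alone, that of cln against the first set's alone, and that of dca against both.

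The wells at the lowest concentration did not share that difference between sets. In them the members' median log2 ratio, second set over first, was 0.034, and 29 of 50 members were above 0, against 0.020 and 54.4% for the other qualifying genes. Set against solvent, the lowest concentrations of the second set had a median of 0.33 with 46 of 50 members above 0, where the other genes had -0.011 and 47.2%. Those of the first set had a median of -0.071 with 17 of 50 above 0, where the other genes had -0.034 and 42.7%. Because the rule selected on ratios to the same solvent wells, these values are a description and carry no test. In the second set, ratios above 0 were thus already present at the lowest concentrations, far below those of the rule. When genes were ranked on each chemical's own lowest concentration in place of solvent, 10 of the 50 members stayed in the list. The part of this offset in the ratios of the 9 exposures was not tested separately.

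Chemicals that had no part in choosing the members as raised were set against the same solvent wells. Because the rule selected on ratios to those wells, the following values are a description and carry no test. In the second set the median log2 ratio of the 50 members was above 0 at each concentration of ampa, diq and dip: at the lowest concentration it was 0.17 for ampa, 0.36 for diq and 0.45 for dip, and at the highest it was 0.25 for ampa, 0.26 for diq and 0.09 for dip. In the first set the medians of ata, cat and gly at the lowest concentration were -0.07, -0.12 and -0.22, and at the highest they were -0.01, -0.13 and 0.24. With thx the median was -0.14 at the lowest concentration and 0.23 at the highest, where the wells had a median total of 58339 counts. With imz it was -0.02 at the lowest and -0.10 at the highest concentration.

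**Figure D2:**
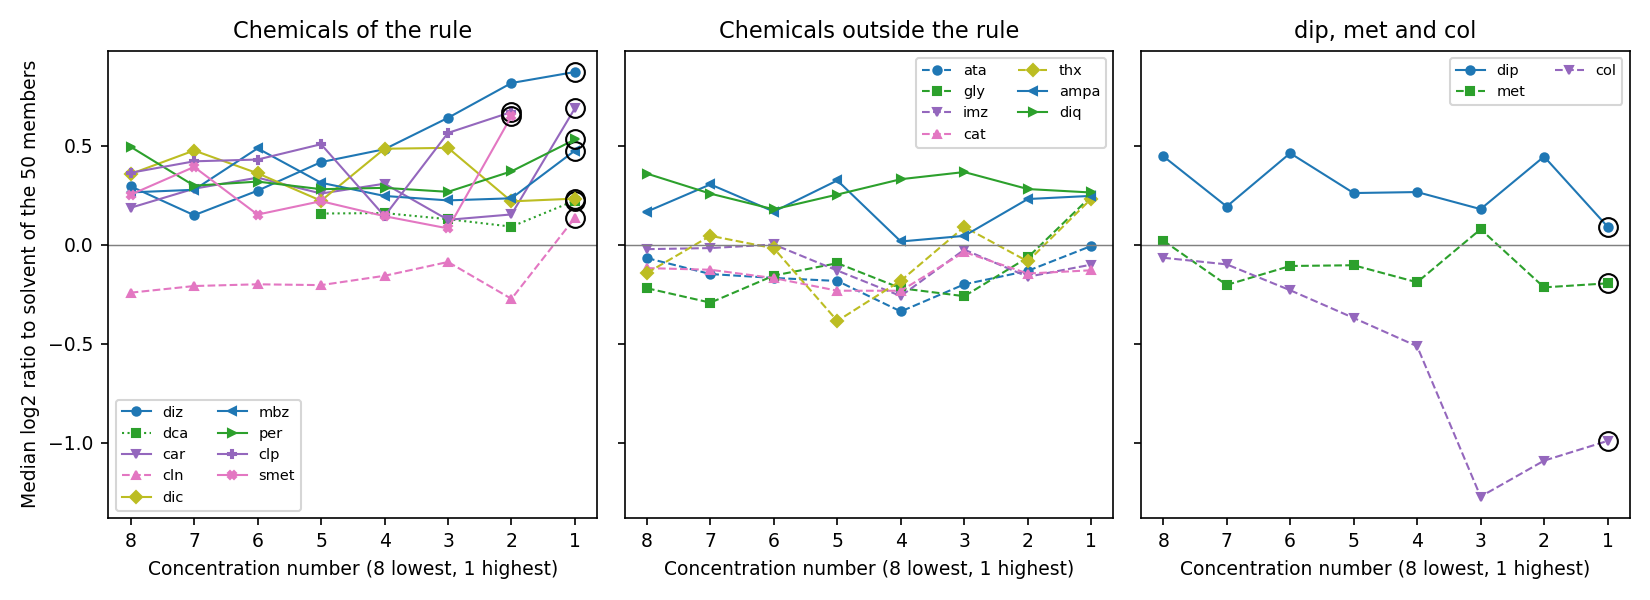
Median log2 ratio to solvent of the 50 members, by concentration number from 8 (lowest) to 1 (highest), with chemicals of the second set as solid lines, those of the first set as dashed lines and dca, in both, as a dotted line; rings mark exposures used by the rule, as raised in the left panel and as a cap in the right panel. Solid lines lie above 0 at every concentration shown, diz climbs to 0.87, and col is lowest at 0.44, with -1.27, and has -0.99 at its highest concentration.

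To ask whether the members rose with concentration, only wells that had no part in choosing them were compared, and each chemical was set against its own lowest concentration, so that no solvent well entered. Genes were tested with edgeR's quasi-likelihood test over all genes that passed a filter on low counts. A gene was called at a Benjamini-Hochberg adjusted p below 0.05. These main fits did not pair wells of the same replicate number, and fits with the replicate as a block are given as alternatives. A member that passed the filter only because 1 group was high had to differ, so the counts below describe the members tested and not all 50. In the step just under the rule (concentration 2, or 3 for clp and smet) over the lowest concentration, pooled over the 9 chemicals in 59 wells, 45 members were tested and 0 were called in edgeR's test, where 0.0224% of 4465 genes were called as higher. Before adjustment, 9 members were higher and 1 lower at p below 0.05, and DESeq2 called 0. Of all 4465 genes, 264 were at such a p in either direction. The members' median log2 change was 0.11, with 27 of 45 above 0, beside a median of -0.01 over all genes. The members' median was 0.03 with the well total as covariate and with no filter, and 0.05 without replicate 2, without diz or without clp. Over all genes the median with no filter was -0.08. With the replicate as a block 1 member was called, ENSOMYG00000013240, with an adjusted p of 0.022 in edgeR against 0.12 without the block. Without replicate 2 the same member was called with 0.00038. Over all genes 5 of 4465 were called as higher with the block and 1 of 4267 without replicate 2.

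Over all 184 unused wells of the 9 chemicals, the slope on the concentration step was positive for 36 of 46 members tested, with a median of 0.02 log2 per step, where the median of all genes was -0.00055. Without diz 28 of 46 slopes were positive, with a median of 0.0060, and with no filter 28 of 50, with a median of 0.0073. The median of all genes was -0.0011 without diz and -0.01 with no filter. One member was called as rising, ENSOMYG00000013240, with a slope of 0.13 log2 per step (SE 0.03, adjusted p = 0.0022 in edgeR), and 0.0233% of 4294 genes were called in that direction, which is this same gene. It was not called without diz, without dca, or without replicate 1 or replicate 3, where the number of members called was 0 and its adjusted p in edgeR was 0.92, 0.058, 0.25 and 0.59. Its slope was 0.06 without diz and 0.10 in each of the other 3 fits.

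Chemicals outside the rule gave no call in the main edgeR fit. At the highest over the lowest concentration of ata, gly, imz, cat, thx, ampa and diq, pooled in 41 wells, 37 members were tested and 0 were called by edgeR, with 0.0% of 3483 genes called as higher. At an unadjusted p below 0.05, 6 members were higher and 0 lower, and DESeq2 called 1. Of all 3483 genes, 234 were at such a p in either direction. The members' median log2 change was 0.15, with 24 of 37 above 0, beside -0.01 over all genes. With no filter it was -0.02, with 24 of 50 above 0, beside -0.10 over all genes. There 2 members were higher and 2 lower at an unadjusted p below 0.05, and 2646 of 36941 genes were at such a p. The replicate block gave 1 call, of a member other than the 4 named here, with an adjusted p of 0.045 in edgeR. It called 8 of 3483 genes as higher.

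Among single chemicals, diz gave the most calls. Its wells at 17.55, the second-highest concentration, held the 50 members at 6206, 5738 and 6798 summed CPM, against 3611, 2341 and 3234 CPM at 0.02, the lowest. The groups did not overlap. From 0.02 upward the median of the 3 wells was 3234, 2881, 3147, 2794, 3533, 4693, 6206 and 5544 CPM. The median at 1.95, 3533 CPM, lay within the range of the wells at 0.02, and that at 5.85, 4693 CPM, was the first above it. The highest concentration, 52.65, did not have the highest median. The concentration at which the rise began was not tested. Median totals per well were 148362 counts at 52.65, 121521 at 17.55 and 287559 at 5.85, against 346400 at 0.02.

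**Figure D3:**
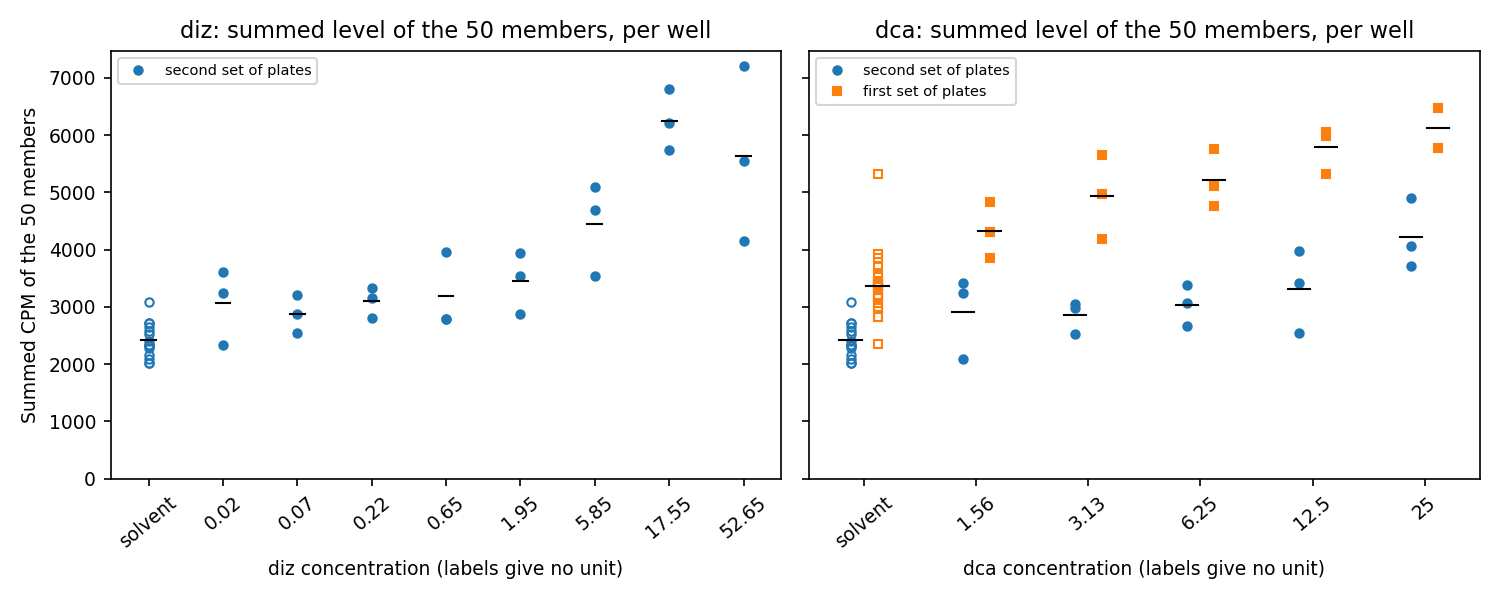
Summed CPM of the 50 members in each well, by concentration of diz (left) and dca (right), with solvent wells as open symbols, bars at the mean, and colours for the set of plates. The 3 wells of diz at 17.55 lie between 5738 and 6798 CPM, above every solvent well and every well at 0.02; the dca wells of the first set lie above those of the second at each concentration.

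In the test of diz at 17.55 over 0.02, with 3 wells each, 5 of 20 members tested were called as higher, where 0.743% of 2020 genes were called as higher. Their log2 changes were 1.20 to 2.80. With no filter on low counts 2 of 50 were called, where 8 of 28055 genes were called as higher. The members' median log2 change was then 0.33, against 0.96 over the 20 that passed the filter. The median over all genes was -0.43 with no filter and 0.0057 with it. The slope over the 21 wells below the highest concentration called 6 of 19 members as rising, by 0.17 to 0.49 log2 per step, where 0.764% of 2225 genes were called as rising. Both tests called 4 of these members. The remaining member called at the step, of rank 19, did not pass the filter of the slope test and was not tested there. Its log2 change at the step was 2.28 (adjusted p = 0.030 in edgeR). That call was lost with no filter (0.213), with the well total as covariate (0.495) and without replicate 2 (0.195) or replicate 3 (0.647). With log2 of the well total as a covariate 4 members were called in each test, while the members' median change was 0.28 for the single step, with 12 of 20 above 0 in place of 19, and the median slope was 0.07 in place of 0.16 log2 per step. Over all genes this covariate gave 18 of 2020 called as higher and 7 of 2225 called as rising. Without 1 replicate the number of members called was 2 to 6 for the single step, with 2 without replicate 2 and 3 without replicate 3, and 3 to 5 for the slope, with 3 without replicate 3. Over all genes 6 to 14 were then called as higher at the step and 5 to 11 as rising.

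The first-ranked member, ENSOMYG00000013240, gave the clearest series in diz. From 0.02 to 52.65, its wells held 104, 69.0 and 157 CPM, then 134, 107 and 112, then 196, 120 and 154, then 188, 186 and 94.4. From 1.95 upward they held 251, 228 and 257 CPM, then 606, 289 and 418, then 852, 536 and 935, and at 52.65 they held 386, 411 and 1306. The wells at 5.85 and 17.55 did not overlap with those at the 5 lowest concentrations of the series, and the solvent wells of the second set held 77.4 to 295 CPM with a median of 144. The log2 change of 17.55 over 0.02 was 2.80 (SE 0.29, adjusted p = 7.2e-08 in edgeR) and the slope below the highest concentration 0.49 log2 per step (SE 0.05, adjusted p = 2.8e-09 in edgeR).

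The same member rose with dca from different starting levels in the 2 sets of plates. In the second set, from 1.56 to 25, its wells held 133, 36.1 and 163 CPM, then 95.1, 55.7 and 92.7, then 115, 97.4 and 194, then 321, 228 and 359, and at 25 they held 537, 472 and 862. In the first set they held 388, 444 and 524 CPM at 1.56, then 492, 884 and 500 at 3.13, then 590.0, 933 and 648, then 666, 1124 and 999, and at 25 the 2 wells kept held 502 and 739. Every dca well of the first set was above all solvent wells of that set, which held 53.8 to 283 CPM with a median of 173. In the second set the 3 lowest concentrations lay within the range of the solvent wells or under it. Over the wells below 25 the slope was 0.45 log2 per step of 2-fold (SE 0.09, adjusted p = 0.012 in edgeR, and 0.0645 to 0.229 when a pair of replicates, 1 from each set, was left out), and the difference of slopes, second set minus first, was 0.25 (SE 0.17, adjusted p = 0.999 in edgeR).

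With cln the rise of ENSOMYG00000013240 was seen at a single concentration. Its wells held 668, 909 and 1044 CPM at 249.68, the highest concentration, which the rule used, against 140, 144 and 240 CPM at 83.23. At the lowest concentration, 0.11, they held 99.8, 198 and 70.6 CPM, and the slope over the unused wells was 0.01 log2 per step (SE 0.06, adjusted p = 0.9997 in edgeR). With car the wells held 527, 388 and 860 CPM at 6.24, against 418, 121 and 436 CPM at 2.08, where 1 of the 3 wells had not left the range of the solvent wells. The slope in the unused wells of car was 0.11 (SE 0.06, adjusted p = 0.999 in edgeR). With dic the member's log2 ratio was -0.74 at the highest concentration.

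**Figure D4:**
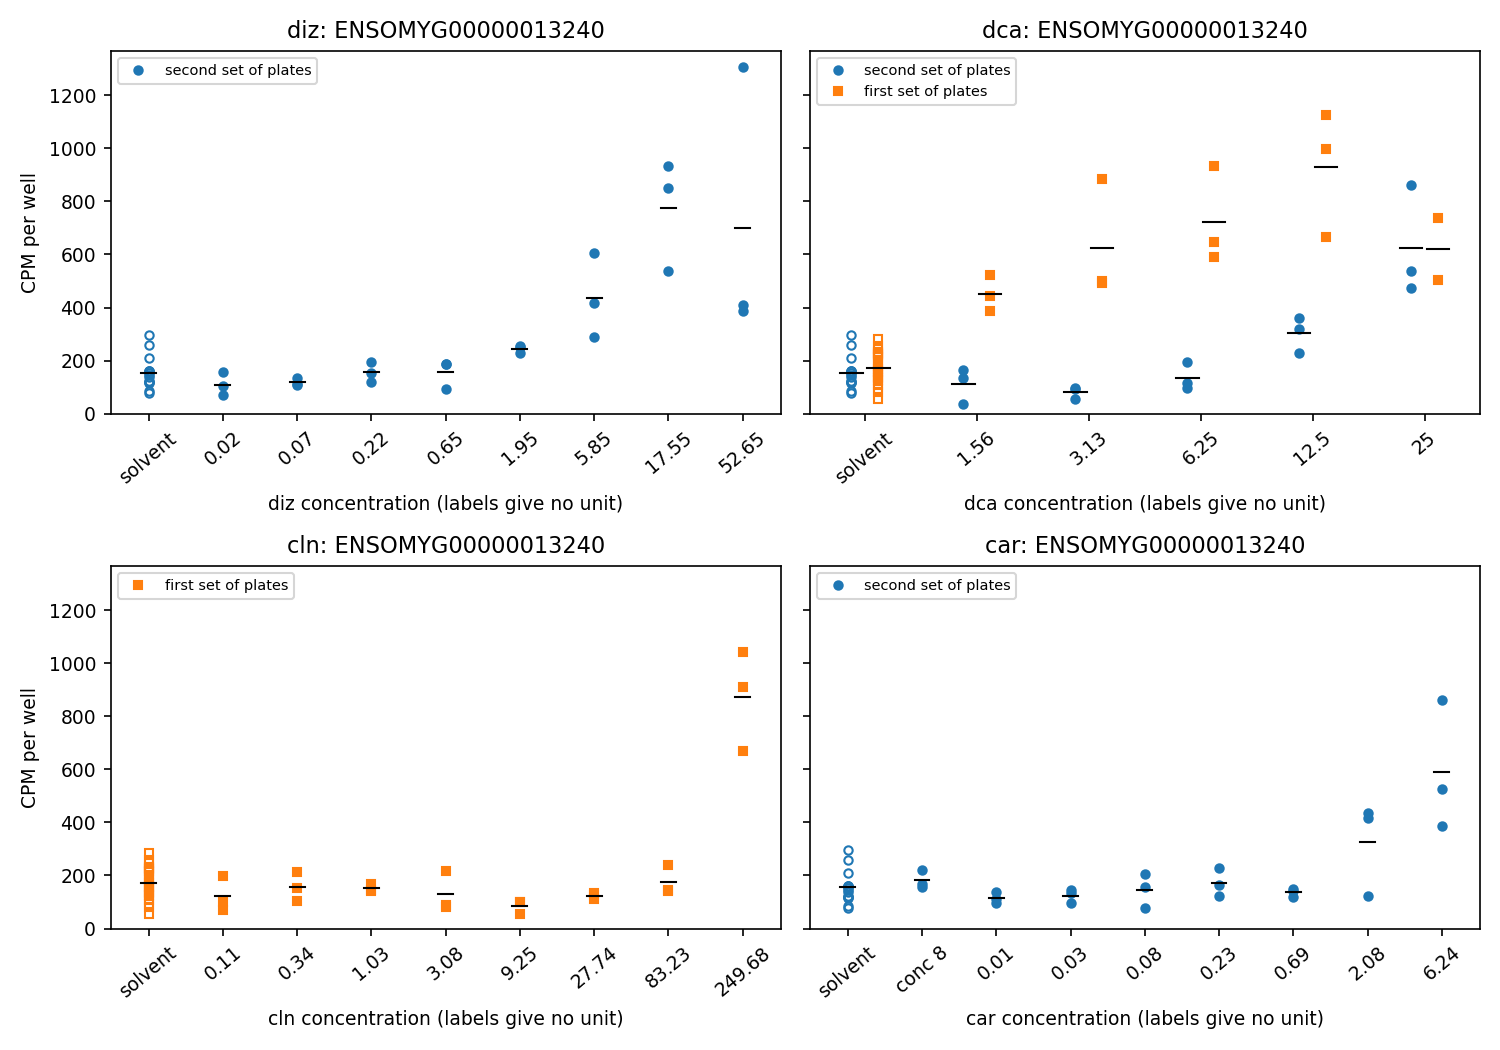
CPM of ENSOMYG00000013240 in each well of diz, dca, cln and car by concentration, with solvent wells as open symbols, bars at the mean and colours for the set of plates. With diz all wells from 5.85 upward hold 289 CPM or more, with cln the 3 wells at 249.68 alone lie above the highest solvent well of 283 CPM, and the first-set dca wells start at 388 to 524 CPM at the lowest concentration.

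The second-ranked member, ENSOMYG00000001134, was less regular. Its log2 ratio to solvent was 1.93 with cln, 1.87 with diz and 1.38 with dca. With diz its wells held 243, 179 and 272 CPM at 17.55, against 80.6, 50.2 and 131 CPM at 0.02, a log2 change of 1.39 (SE 0.38) that missed the threshold with an adjusted p of 0.078 in edgeR and passed it with the replicate block at 0.017. At 52.65 the 3 diz wells held 96.5, 169 and 583 CPM, so 1 well held most of the counts. With dca at 25 the wells of the first set held 730 and 113 CPM and those of the second 72.3, 95.7 and 165 CPM, and the slope below 25 was -0.24 (SE 0.13, adjusted p = 0.999 in edgeR). In the second set alone its log2 ratio at 25 was 0.60, against 1.78 in the first, where 1 well held most of the counts.

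The third-ranked member rose with diz. Its diz wells held 257, 325 and 382 CPM at 17.55, against 46.1, 25.1 and 84.7 CPM at 0.02, without overlap, and 172, 145 and 216 CPM at 52.65. The slope was 0.44 log2 per step (SE 0.06, adjusted p = 3.0e-05 in edgeR), and it was steeper than in the other 8 chemicals of the rule by 0.44 (SE 0.07, adjusted p = 5.0e-06 in edgeR). Its log2 ratio was also 1.71 with car and 1.23 with clp in the exposures of the rule. In the first set its dca wells held 60.3 and 25.7 CPM at 25, which the rule used, against 237, 199 and 159 CPM at 1.56. Over both sets its log2 ratio to solvent at 25 was 0.45. The slope with dca over the wells of both sets below 25 was 0.12 (SE 0.09, adjusted p = 0.999 in edgeR).

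Members that rose with dca were few. At 12.5 over 1.56, in 12 wells, 1 of 22 members tested was called as higher, where 0.0776% of 2578 genes were called. The replicate block raised this to 5 members, where 9 of 2578 genes were called as higher. No member was called when replicate 1, 2, 4 or 6, out of 6, was left out alone, where 0 to 1 genes were called. The slope over the 24 wells below 25 called 3 of 28 members as rising, by 0.40 to 0.57 log2 per step, where 0.105% of 2852 genes were called as rising, so the 3 members are all the genes called. Without 1 replicate 2 or 3 members were called, and 0 when a pair of replicates, 1 from each set, was left out (1 and 4, 2 and 5, or 3 and 6). Over all genes 2 to 4 were called as rising without 1 replicate and 0 without a pair. Of these 3 members, 2 were also called as rising with diz. Over 28 members, 0 differed in slope between the sets of plates in edgeR's test, where 0.0351% of genes were called as steeper in the second set. Before adjustment 1 member was steeper in the second set and 2 in the first, and DESeq2 called 0. Of 2852 genes, 95 were at an unadjusted p below 0.05 in either direction.

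The members' median ratio to solvent under dca differed most between the sets at the highest concentration. The rule used the wells at 25 and the solvent wells, so these values are a description and carry no test. The solvent level of most members was lower in the second set, and this enters the ratios. Their median log2 ratio to the same set's solvent, from 1.56 to 25, was 0.10, 0.26, 0.28, 0.22 and 0.49 in the second set, against 0.01, 0.08, 0.28, 0.14 and -0.08 in the first. In the first set the median stayed low while a few members were very high: 5 members were at 1 or more at 1.56, and 11 at 25, where 23 of 50 were above 0. In the second set 1 member was at 1 or more at 1.56 and 8 at 25, where 40 of 50 were above 0. Summed CPM at 25, into which no solvent level enters, was lower in the second set. It was 4071, 3713 and 4898 there and 6469 and 5777 in the first.

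The seventh-ranked member had the steepest slope with dca, 0.57 log2 per step (SE 0.10, adjusted p = 0.0067 in edgeR, and 0.0645 to 0.289 without such pairs of replicates). At 12.5 its wells held 107, 58.8 and 127 CPM in the second set and 241, 408 and 226 CPM in the first. At 1.56 they held 29.5, 39.7 and 13.0 CPM in the second set and 75.2, 76.6 and 127 CPM in the first, so the concentrations did not overlap within either set. The rule used the wells at 25 and the solvent wells, so the next values are a description. The fifth-ranked member held 114, 102 and 213 CPM at 25 in the second set and 696 and 590.0 CPM in the first. Its solvent wells held at most 148 CPM in the second set and 130 CPM in the first. Its slopes were 0.40 with dca (SE 0.08, adjusted p = 0.029) and 0.30 with diz (SE 0.07, adjusted p = 0.022), both in edgeR. The call with dca was lost without replicate 1, 3, 4 or 5 (adjusted p in edgeR of 0.119 to 0.227) and with no filter (0.254), and that with diz without replicate 1 (0.16), without replicate 2 (0.707) and with the well total as covariate (0.082). That slope with diz was 0.19 without replicate 2 and 0.35 with the covariate.

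The other 7 chemicals of the rule gave no call at lower concentrations in the main edgeR fits. With car, cln, dic, mbz, per, clp and smet tested one by one, 2 to 39 members passed the filter, and edgeR called 0 as higher at the step under the rule, where the share of all genes called as higher was 0.0452% with car, 0.0% with cln, 0.0256% with dic, 0.0889% with mbz, 0.0602% with per, 0.0655% with clp and 0.102% with smet. The members' median log2 change at this step was -0.10 with dic, -0.18 with mbz and -0.22 with per. Those of dic and per were above 0 with no filter, at 0.03 and 0.02, where the medians of all genes were 0.22 and -0.02. With the well total as covariate the members' medians were 0.07 and 0.20, where those of all genes were 0.0039 and 0.01. Over these 7 tests 5 of 119 results were higher and 4 lower at an unadjusted p below 0.05, and DESeq2 called 0. Genes at such a p in either direction were 70 of 2214 with car, 36 of 1573 with cln and 170 of 3908 with dic. They were 149 of 3373 with mbz, 94 of 1662 with per, 53 of 1526 with clp and 73 of 982 with smet. The slopes over the unused wells, with 11 to 25 members tested, also gave 0 calls in edgeR and in DESeq2. In edgeR 0.0901% of genes were called as rising with dic, 0.0326% with mbz, 0.126% with per and 0.0% with each of the other 4. Before adjustment 3 of 113 results were rising and 5 falling at p below 0.05. Genes at such a p in either direction were 63 of 1847 with car, 73 of 1868 with cln and 55 of 2219 with dic. They were 109 of 3070 with mbz, 156 of 2382 with per, 84 of 2126 with clp and 80 of 2393 with smet. The median slope per chemical was between -0.02 and 0.02 log2 per step. For the 7 chemicals outside the rule, 7 to 17 members were tested per chemical, edgeR called 0 as rising and 0.0% of all genes, and DESeq2 called 0. Before adjustment 11 of 82 results were rising and 2 falling at p below 0.05. Genes at such a p in either direction were 88 of 1807 with ata, 100 of 1553 with gly, 71 of 1830 with imz and 73 of 1626 with cat. They were 71 of 1124 with thx, 89 of 2304 with ampa and 80 of 2516 with diq. The replicate block gave 1 call there, of ENSOMYG00000013240 with thx, at a slope of 0.25 and an adjusted p of 0.025 in edgeR, against 0.13 without the block. With the block 9 of 1124 genes were called as rising with thx.

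For 5 members the slope with diz was steeper than the common slope of the other 8 chemicals of the rule, where a step is 3-fold, or 2-fold for dca. In 1 model of all 184 unused wells, the slope with diz minus the common slope of the other 8 was above 0 for 38 of 46 members, with a median of 0.10 log2 per step. The test of this difference called 5 members as steeper with diz, by 0.16 to 0.44 and adjusted p of 0.031 or less in edgeR, where 0.396% of 4294 genes were called as steeper with diz. All 5 were among the 6 members called as rising with diz. The comparison is with the 8 chemicals together, and most of the 5 members had similar slopes per step with dca alone. The 5 members are those of rank 1, 3, 9, 18 and 21. In that order their slopes with diz alone were 0.49, 0.44, 0.25, 0.28 and 0.17 per 3-fold step. With dca alone they were 0.45, 0.12, 0.25, 0.25 and 0.21 per 2-fold step, of which only the first was called. The seventh-ranked member had a slope of 0.16 with diz and 0.57 with dca alone, and the fifth-ranked 0.30 with diz and 0.40 with dca. The common slope of the other 8 chemicals had a median of 0.0064 log2 per step and called 0 members in edgeR, where 0.0% of genes were called as rising. There 1 member was rising and 1 falling at an unadjusted p below 0.05, and 206 of 4294 genes were at such a p in either direction. Without 1 replicate 3 or 4 members passed the test of the difference, with 3 without replicate 2 and 3 without replicate 3. Over all genes 7 to 12 were then called as steeper with diz. Members of rank 1 and 3 kept the call in every alternative. Those of rank 9 and 21 lost it when any 1 replicate was left out (adjusted p in edgeR of 0.105 to 0.405 and of 0.0607 to 0.702) and with no filter. The member of rank 18 lost it without replicate 3 (0.0775). The counts without replicate 1 or 3 thus include a member outside the 5. The well total was not tried as a covariate in this test.

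**Figure D5:**
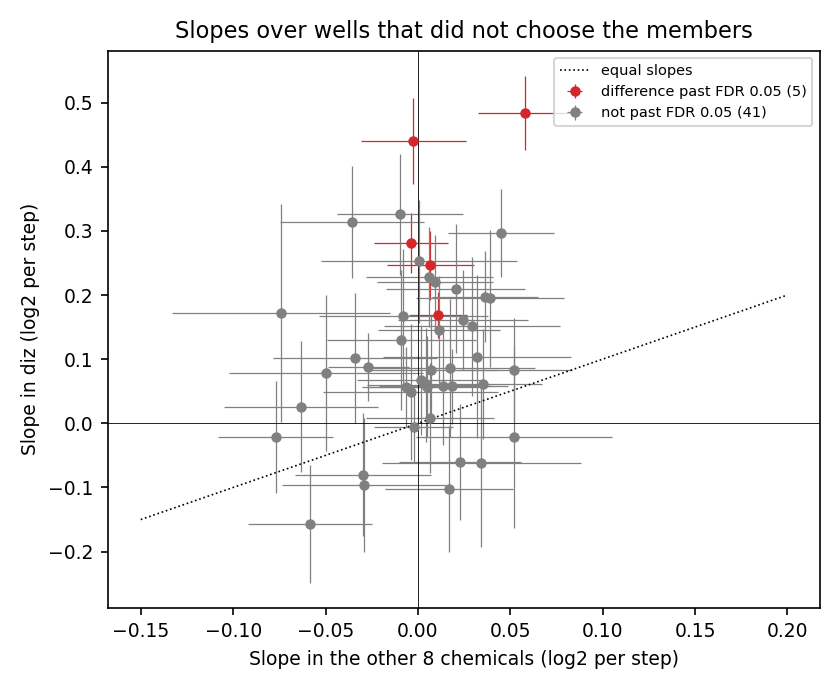
Slope of each of 46 members over the unused wells with diz (vertical) and with the other 8 chemicals of the rule together (horizontal), in log2 per concentration step from 1 model, with bars of 1 SE. Red points are the 5 members whose difference passed an adjusted p of 0.05; points lie above the dotted line of equal slopes for 38 of 46 members.

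In wells of dip, met and col below their highest concentration, the members did not follow 1 direction. With dip 0 of 18 members tested were called as rising in edgeR, where 0.08% of 2501 genes were, and DESeq2 called 0. Before adjustment 1 member was falling and 0 rising at p below 0.05, where 218 of 2501 genes were at such a p in either direction. Slopes with dip were above 0 for 2 of the 18, for 10 with the well total as covariate, and for 31 of 50 with no filter. The members' median slope with no filter was 0.02 in place of -0.04, and that of all genes was 0.02 in place of -0.00028. With met 1 of 16 was called as rising, where 0.169% of 2367 genes were, and the number was 0 when any 1 replicate was left out. Before adjustment 8 of the 16 were rising and 0 falling at p below 0.05, and 12 slopes were above 0. Of all 2367 genes, 132 were at such a p in either direction. The member called was the fourth-ranked member, whose met wells held 315, 250 and 232 CPM at 18.82, against 90.1, 63.2 and 132 CPM at 0.03 (slope 0.25, SE 0.05, adjusted p = 0.020 in edgeR). With col 5 members passed the filter, 2 were called as rising and 2 as falling, where 21.0% of 1059 genes were called as rising and 21.2% as falling, so the members' shares cannot be read apart from the background.

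Of the 5 members tested with col, the 2 called as falling were called as rising with diz. They are not all the members that were low with col: with no filter 11 of 50 were called as falling, where 1316 of 31807 genes were. ENSOMYG00000040385 held 25.0 and 63.3 CPM in the 2 wells kept of col at 3.99, where both wells together had 3 counts of it, against 391, 370.1 and 349 CPM at the lowest concentration. Its slope below 3.99 was -0.55 log2 per step (SE 0.12, adjusted p = 0.00095 in edgeR). With diz it held 690 to 1003 CPM at 17.55, against 264 to 421 CPM at 0.02, and its slope was 0.17 (SE 0.03, adjusted p = 0.0041 in edgeR, 0.11 without replicate 3, 0.21 with the well total as covariate and 0.097 with no filter). ENSOMYG00000015017 had a slope of -0.39 with col (SE 0.14, adjusted p = 0.032 in edgeR) and of 0.28 with diz (SE 0.05, adjusted p = 0.00046 in edgeR). For the first of these slopes the adjusted p in edgeR was 0.052 with the replicate block, 0.18 with the well total as covariate and 0.054 to 0.28 when replicate 1, 2 or 3 was left out, and for the second it was 0.064 without replicate 3. Both were singled out after their values were seen.

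ENSOMYG00000013240, the first-ranked member, had 0 counts in all 8 wells kept of the 4 highest concentrations of col, whose counts came to 277799 without the 4 most counted IDs. A count of 0 allows up to 10.8 CPM (3 counts over the 8 wells together, counting error only), so its level there was at least 16.6-fold lower than the 179.7 CPM of the pooled solvent wells of the first set. At the fifth concentration, 0.05, the wells held 24.0, 59.8 and 104 CPM, and at 0.02 they held 191, 134 and 108 CPM. This member was not tested with col after the filter on low counts.

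Pairs of members correlated weakly between wells of the same group. Log2 levels were taken as deviations from the mean of the plate in solvent wells. In exposed wells they were deviations from the mean of the chemical and concentration. A change shared across exposures is removed in this way and was not measured here. Over 39 solvent wells the mean pairwise correlation was 0.031 for the members, against 0.068 for the other qualifying genes. Over 351 exposed wells not used by the rule, without those of dip, met and col, it was 0.026, against 0.045. These are descriptions, and the genes of a pair share library and depth. The members were also more variable than other genes in solvent wells, on which the rule selected, so this too is a description. Their median coefficient of variation there was 58.1% in the second set and 73.1% in the first. The other qualifying genes had 43.7% and 62.7%. At the lowest concentrations, which the rule did not use, it was 52.9% for members and 45.8% for the other genes, averaged over chemicals and not matched for level. A band of 20 to 100 CPM held 44 members and 2918 other genes of nearly the same median level over all solvent wells (39.3 and 39.7 CPM). Within it the values in solvent wells of the second and first set were 60.2% and 75.9% for members, against 50.1% and 70.9%. The level was not matched within a set: over all members the median in the second set was 32.9 CPM, against 51.2 CPM for the other genes.

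Concentration and plate row coincide within a chemical, so they cannot be told apart in the exposed wells. In the solvent wells of the first set, row H over rows B to G gave 0 calls among 21 members in edgeR, where 0.0375% of genes were called as higher, with 0 members at an unadjusted p below 0.05 and 0 in DESeq2. Of 2669 genes, 78 were at such an unadjusted p in either direction. Row H held the highest concentration of each chemical but dca, and each plate had a single solvent well in it. The members' median log2 difference was -0.12, but its direction depended on the setting. With no filter it was 0.33, with 38 of 50 members above 0, where the median of all genes was 0.14. There 5 members were higher at an unadjusted p below 0.05, and 1920 of 34566 genes were at such a p in either direction. Without plate 1 the members' median was 0.18, with 14 of 23 above 0, where that of all genes was -0.01. This fit does not cover the rows behind the calls with diz. The step of diz compared row G with row A, and row A was not in the main row fit. Solvent wells of the second set, to which diz belongs, lay in rows A to E, so row G could not be compared there.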

How the data were processed

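RNA of single wells was measured with QIAseq UPXome kits, per the labels' protocols. The values are counts, whole and not scaled, for each well and Ensembl ID, as the authors deposited them. Aligner, counter and annotation: not given in the sources used here. Solvent columns recur in the chemicals' tables: 381 repeats were compared and 0 differed. Wells under 24095 counts (14 of 501) were left out, as were the 4 most counted IDs in CPM and ratios. CPM of a group was taken from summed counts, and 5 CPM was added to both sides of a log2 ratio. No pair of wells of 1 group agreed within sampling noise (596 pairs, lowest chi-square per degree of freedom 1.66).

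The members, lists and rules were chosen with earlier results of these data known. Because no ID was paired with a name, the naming rule gave the 2 members with the highest third-highest ratio, since 0 members passed the pooled test of the step under the rule. Tests used edgeR 4.0.16 in R 4.3.3 (quasi-likelihood, TMM, filterByExpr, two-sided, Benjamini-Hochberg adjusted p below 0.05 over all genes tested), with the chemical as a term, dca split by set of plates, and were tested on simulated data. Solvent wells of the first set were compared by plate row in the same way, with the plate as a term. The slope used concentration steps of 3-fold, or 2-fold for dca. Alternatives were DESeq2 1.42.0, no filter, all wells, the replicate as a block, the well total as covariate, other reference wells, and leaving out replicates or chemicals. In pooled fits, replicate n of all chemicals was left out with n + 3 of dca. Alternatives of the single chemicals and the comparison of slopes were added after the data were seen. Exposures were repeated over 3 passages, per the design text, so wells of a chemical with the same replicate number share passage, plate and library and are paired. The main tests had no term for this pairing, and those with the replicate block had one. Deviations of paired wells from their group means correlated by a median of 0.061 (range -0.0055 to 0.133 in 29 pairs of wells), against -0.029 between libraries. Deviations cancel within a group, so the value between libraries follows from the paired one and is not a separate comparison. P-values measure the spread between such wells of 1 cell line. Intervals from a count of 0 cover counting error only. The first and second set of plates are so called because the labels do not say which batch a table belongs to. Python 3.11.15 with pandas 2.3.3 made the tables and matplotlib 3.10.9 the figures.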

Additional observations from a re-analysis of the deposited data

Results flagged for a closer look

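The level of ENSOMYG00000001134 had a single well far above the others in 2 groups of dca. At 25 the highest of 5 wells held 730 CPM (729.903) and the next 164.563 CPM, and at 6.25 the highest of 6 wells held 498 CPM (497.788) and the next 163.254 CPM; both high wells are replicate 1 of the first set. The summed level of the 50 members had a single high solvent well on plate 2, with 5323 CPM (5323.05) against 3924 CPM in the next of 8 wells. On plate 6 the highest of 5 solvent wells held 3077 CPM (3077.29) against 2396 CPM in the next. In all, 33 pairs of a group of 4 to 10 wells and a measure (the summed level or 1 of the 2 first-ranked members) were examined. Such a well was found in 4 pairs. The rule flags about 1 in 20 independent groups by chance. Here the measures share wells and the dca groups pool both sets of plates, so this rate need not hold.

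The slope with diz differed from the common slope of the other 8 chemicals of the rule for 5 members, by the interaction term in edgeR at an adjusted p below 0.05. Their differences were 0.16 to 0.44 log2 per step, all steeper with diz than with the 8 chemicals together. Their slopes with dca alone are given in the results.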

How the results depend on the processing

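The list itself changed with how it was made: of the 50 members, 45 were shared at a pseudocount of 2, 44 at 10, 48 with all wells kept, 35 by the fourth-highest ratio, 32 by the second-highest, 29 with the mean of the wells' CPM, 11 with the most counted IDs kept, 26 to 31 without replicate 1, 2 or 3, and 10 with the chemical's own lowest concentration in place of solvent. For the pooled step under the rule, 1 member was called in place of 0 with no filter, with the replicate block, without dic, without mbz, with the 2 lowest concentrations as the lower arm, and 0 to 1 without a replicate. Genes called as higher were, in that order, 3 of 38646, 5 of 4465, 2 of 3978, 2 of 3987, 1 of 4546, and 0 to 1 without a replicate. For chemicals outside the rule, 1 was called with DESeq2 and with the replicate block, and 0 to 1 without a replicate. Of 3483 genes, 5 were called as higher with DESeq2 and 8 with the block, and without a replicate 0 to 2 genes were. The pooled slope called 0 in place of 1 without diz and without dca, and 0 to 1 without a replicate. The counts of all genes called as rising were the same there. The step of diz (5) gave 2 with no filter and 2 to 6 without a replicate, where 8 of 28055 genes and 6 to 14 genes were called as higher. Its slope (6) gave 3 to 5 without a replicate, where 5 to 11 genes were called as rising. The step of dca (1) gave 2 with DESeq2, with no filter and with the well total as covariate, 5 with the replicate block, 0 without each of the 3 pairs of replicates (1 and 4, 2 and 5, 3 and 6), and 0 to 1 without a replicate. Genes called as higher were, in that order, 3 of 2578, 4 of 31664, 3 of 2578, 9 of 2578, 0 and 0 to 1. Its slope (3) gave 0 without each pair and 2 to 3 without a replicate, where 0 and 2 to 4 genes were called as rising. The difference of slopes of diz (5) gave 3 with no filter and 3 to 4 without a replicate, where 29 of 40725 genes and 7 to 12 genes were called as steeper. With col, the 2 rising members became 1 with no filter, 0 with the covariate and 0 to 4 without a replicate, and the 2 falling became 11 with no filter, 1 with the block, 1 with the covariate and 1 to 3 without a replicate. Over all genes, 404 rose and 1316 fell of 31807 with no filter, and 201 of 1059 fell with the block. With the covariate 143 rose and 140 fell of 1059, and without a replicate 120 to 210 rose and 70 to 225 fell. For the other 7 chemicals of the rule, 1 member was lower at the step with no filter and 1 with the block, and 1 slope fell with no filter. These calls were with mbz, where 6 of 29213, 10 of 3373 and 25 of 34724 genes were called in that direction. The slopes outside the rule gave 1 rise with no filter, 1 with the block and 0 to 1 without a replicate. With no filter the rise was with ampa, where 84 of 33281 genes rose. With the block it was with thx, where 9 of 1124 rose, and without replicate 2 with thx, where 3 of 2033 rose. The slopes of dip and met gave 0 members in place of 1 when any 1 replicate was left out, where 1 to 2 genes rose with dip and 0 to 3 with met. The cause of these changes was not tested. The replicate block moved no other count of called members printed in the text by over 1.5 times. It raised counts over all genes, among them those rising in the pooled slope (12 in place of 1) and along dca (10 in place of 3) and those higher at the step of dic (23 in place of 1) and per (19 in place of 1). Of unadjusted counts, 10 members in place of 6 were higher outside the rule, 3 in place of 1 fell with dip, and 4 in place of 1 were steeper in the second set. Over all genes tested, in either direction, 318 in place of 234, 259 in place of 218 and 162 in place of 95 were at an unadjusted p below 0.05, in that order. The median member had 6 counts in a well, and the smallest change this depth can show was not measured.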

Other observations

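ENSOMYG00000001134 was also high with col at 1.33, an exposure that the rule did not use. Its 2 wells held 539 and 293 CPM, where the solvent wells of the first set held at most 288 CPM. At this concentration the other qualifying genes had a median log2 ratio of -1.42, and 4.12% of them were at 1 or more. Both wells together had 21 counts of ENSOMYG00000001134, and its level at 3.99, 0.44 and 0.15 was 167, 112 and 141 CPM. With cln at 249.68, which the rule used, its wells held 172, 548 and 359 CPM, against 17.5, 125 and 93.4 CPM at 83.23.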
